A study of Homo sapiens with 12 samples.

Results

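The genes described here are 9 genes of the pluripotency programme, POU5F1, NANOG, SALL4, DPPA4, TDGF1, DNMT3B, L1TD1, ZFP42 and PRDM14, measured by RNA sequencing in neural progenitor cultures derived from human embryonic stem cells. They were chosen by name, as rows of the count tables that carry these gene symbols, and all 9 were found among the 25718 genes of the tables. Only 3 of them, SALL4, DPPA4 and DNMT3B, had a mean above 10 counts per sample, as had 11451 genes in all. A gene with several listed transcripts was represented by the transcript with the highest mean count.

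Pluripotent stem cells keep their identity through a small circuit of transcription factors led by the proteins of POU5F1 (OCT4), NANOG and SOX2, and this circuit is switched off when the cells are directed to the neural lineage. Some genes of the programme are shut quickly and serve as markers of leftover stem cells, whereas others, such as SALL4 and LIN28A, are known to stay on for a time in early progenitors. Which genes remain detectable in a differentiated culture is therefore of practical interest for cells intended for grafting.

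The 12 samples were cultures of H9, an established human embryonic stem cell line that was expanded on mouse embryonic fibroblast feeders. All cultures were transduced with a lentiviral vector, at a multiplicity of infection of 50, that expresses a GFP reporter together with either miR-10a or miR-10b under the control of doxycycline, and they may hold cells without the vector. All cultures were patterned towards ventral midbrain with Shh at 200 ng/ml and the GSK3 inhibitor CT99021 at 0.8 µM, and were harvested on day 14. For each vector, 3 cultures received doxycycline at 2 µg/ml from day 11 to day 14 and 3 cultures of the same transduced cells did not. Doxycycline and miR-10 therefore cannot be told apart in these samples, and neither can the vector and the transduced culture it was in. Undifferentiated cells were not analysed here, so the values below are levels on day 14 and not a remainder of a measured starting level. Nothing in the labels states that the replicates were separate differentiations, so the p-values measure the spread between these samples, which may be technical.

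Total counts were between 10545487 and 14165426 per sample, and every doxycycline library had a lower total than every control library of its vector. The miRNA precursors matched the labels: MIR10A was at 711 to 731 CPM (counts relative to each library's total) in the miR-10a cultures with doxycycline and at most 1.37 CPM elsewhere, and MIR10B was at 2541 to 2662 CPM in the miR-10b cultures with doxycycline and at most 4.45 CPM elsewhere. Without doxycycline, each precursor was already higher with its own vector. MIR10A had a mean of 0.999 CPM in the miR-10a and 0.0515 CPM in the miR-10b controls, and MIR10B 0.814 and 3.55 CPM. Neural progenitor markers led by NES, VIM and SOX11 summed to 15950 to 17320 CPM in the 12 samples, neuronal genes led by SYT4, INA and TUBB3 to 1448 to 1711 CPM, and ventral midbrain and floor plate genes led by SHH, FOXA1 and EN1 to 1122 to 1480.0 CPM. Markers of mesendoderm (CER1, TBX6, CXCR4; 3.03 to 4.15 CPM), trophectoderm (KRT7, XAGE2, CGB; 0.240 to 1.29 CPM), germ cells (TFAP2C, NANOS3, TDRD9; 2.09 to 3.61 CPM) and neural crest (ERBB3, SOX10, FOXD3; 3.02 to 5.93 CPM) were low. DAZL, DDX4, KIT and SYCP3 of the germ cell list and GATA3 and ELF5 of the trophectoderm list were at 0 in all samples, each of these 6 with several listed transcripts. Under the count minimum, several transcripts were listed for 4 of 9 mesendoderm genes and 4 of 9 trophectoderm genes. The same held for 6 of 8 germ cell genes and 1 of 4 neural crest genes. Counts of such genes can be too low, as described below, so the low sums do not show that these cell types were absent. Replicate 2 of the miR-10b doxycycline cultures stood further from its replicates than any other library, with a chi-square per degree of freedom of 3.16 and 4.09 against 1.23 to 1.93 for the other pairs.

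A miRNA represses transcripts that pair with its seed, bases 2 to 8, usually in the 3′UTR, and the seed of miR-10a is shown because it defines the sites searched for in the pluripotency genes. The mature sequence is that of RefSeq (GRCh38.p14, chr17:48579904-48579926, minus strand), with the seed in capitals. hsa-miR-10b-5p is named only.
hsa-miR-10a-5p: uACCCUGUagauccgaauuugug

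Sites were searched on the sense strand of the longest annotated 3′UTR (GENCODE 44 on GRCh37), as 8mer ACAGGGTA, 7mer-m8 ACAGGGT, 7mer-A1 CAGGGTA or 6mer CAGGGT, counting the longest match at each position. The 3 genes that could be tested held no match, over 1934 bases in SALL4, 1844 bases in DPPA4 and 1456 bases in DNMT3B. TDGF1, ZFP42 and PRDM14 held none either, POU5F1 and L1TD1 held 1 6mer each, and NANOG held 1 7mer-m8. LIN28A, a pluripotency gene outside the 9, held 1 7mer-m8 and is printed because it is the gene against which the measured ones are set below. For comparison, 21.1% of 9258 tested genes with an annotated 3′UTR held an 8mer or 7mer and 40.7% held any match, at a median 3′UTR length of 1553 bases. A match is a description of the sequence only. Of these matches, 3 are printed with the matching bases in capitals and flanking bases in lower case. The LIN28A match is at chr1:26754169-26754175 (plus strand), the POU5F1 match at chr6:31132300-31132305 (minus strand) and the L1TD1 match at chr1:62677050-62677055 (plus strand).
LIN28A: accatgtgccACAGGGTgtgtgtgtgt
POU5F1: gagtttgtgcCAGGGTttttgggatt
L1TD1: cacgcCAGGGTgactacaaac

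Of the core factors, POU5F1 and NANOG could not be reliably measured. POU5F1, which encodes the POU-domain factor OCT4, had 9 counts over its 5 transcripts and all 12 samples, and no sample had more than 2. NANOG, the homeodomain factor of the ground state, was at 0 counts on both transcripts in every sample. These values do not show the level of the genes. In the tables, reads shared by several transcripts appear to be left out: of the genes with mRNA transcripts, 65.4% of those with 1 listed transcript had a mean above 10 counts, against 41.2% with 2 transcripts and 26.3% with 5 or more. DNMT1, the maintenance DNA methyltransferase that dividing cells use, was listed at 0 to 4 counts with 2 transcripts. The POU5F1 transcripts were in addition each listed on 7 rows, and the gene has 6 annotated pseudogenes, an exon that overlaps TCF19 on the opposite strand (GRCh37 chr6:31132114-31148508), and a near-identical retrogene, POU5F1B. NANOG (chr12:7940390-7951742) has 11 annotated pseudogenes.

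POU5F1B, listed with 1 transcript, had 10 to 22 counts per sample. Its level was 1.10 ± 0.18 CPM without and 1.11 ± 0.32 CPM with doxycycline in miR-10a cultures, and 1.22 ± 0.15 CPM without and 1.66 ± 0.25 CPM with doxycycline in miR-10b cultures (mean ± SD, n = 3 each). The miR-10b difference did not pass the test (log2 0.44, SE 0.27, adjusted p = 0.30). Reads of POU5F1 and POU5F1B cannot be told apart where their sequences are the same, so the value may belong to either.

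TDGF1, the EGF-CFC co-receptor of NODAL also called CRIPTO, had 1 count in total, and L1TD1, an RNA-binding protein derived from a LINE-1 element, had 2. Both genes have 2 listed transcripts and share the limit given for NANOG. TDGF1 (chr3:46616024-46623947) in addition overlaps LRRC2 on the opposite strand and has 7 annotated pseudogenes. The listed transcripts differ in length by 390 bases for TDGF1, 111 for L1TD1 and 48 for NANOG, so part of the longer one is not shared. How much of these 4 genes could be counted was not tested, so their low counts do not by themselves show low expression.

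ZFP42 and PRDM14 were near 0 in counts that the tables could measure, each with 1 transcript on 1 row. ZFP42 encodes REX1, a zinc-finger protein whose loss is a textbook mark of exit from pluripotency, and PRDM14 encodes a repressor that safeguards the naive and germ-line state. ZFP42 (chr4:188916925-188926200) had 1 count in each of 4 samples and 0 in the other 8, which is 4 counts in 147723096, or 0.0271 CPM with an exact Poisson interval of 0.00738 to 0.0693 CPM (95%, counting error only). PRDM14, on chromosome 8, had 2 counts in replicate 2 of the miR-10a controls, 1 in replicate 2 of the miR-10a doxycycline cultures and 0 in the other 10 samples, or 0.0203 CPM (0.00419 to 0.0593 CPM). In every group, both genes were at or below the floor of 3 counts, so that no fold between groups was computed. Exact permutation tests of 3 against 3 samples (two-sided, smallest possible p 0.1) gave p = 0.4 or 1 for the doxycycline effect on either gene with either vector. Per kilobase of transcript, ZFP42 was at 0.0106 CPM and stood above 12.2% of 10041 genes with 1 mRNA transcript on 1 row, and PRDM14 above 11.1%. Low numbers of stem cells and low RNA per cell cannot be told apart in bulk samples.

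**Figure D1:**
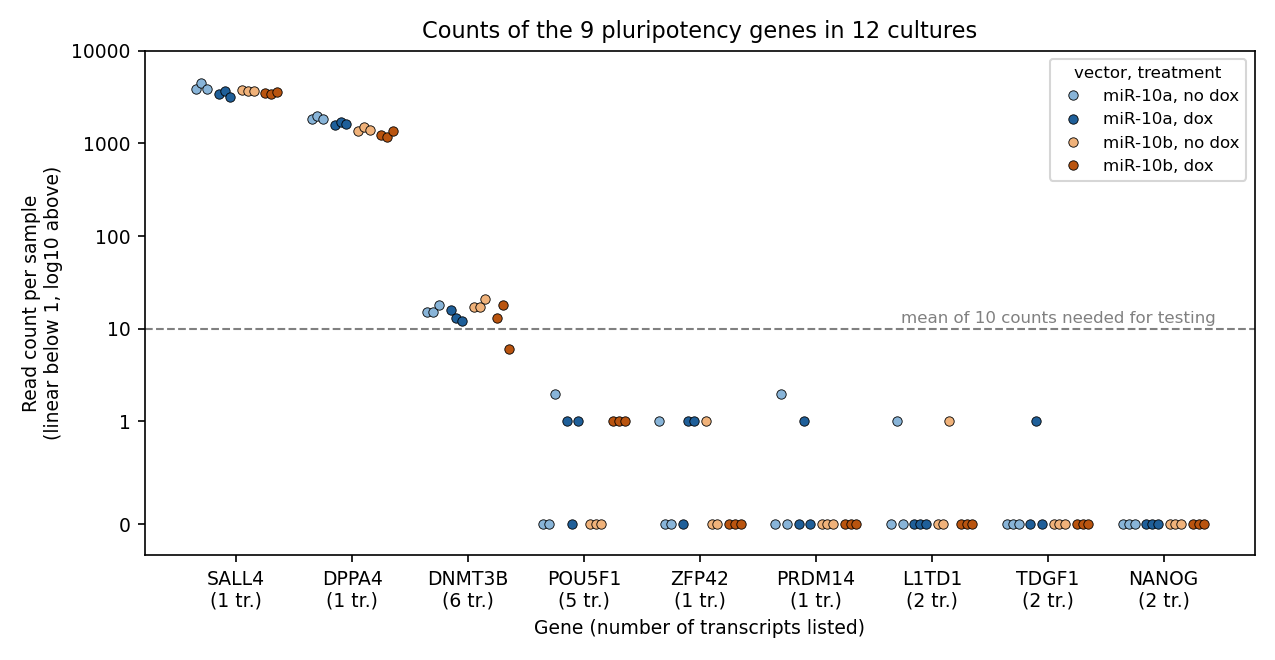
Read count of the representative transcript of each gene in each of the 12 cultures, with the number of listed transcripts under the gene symbol; the vertical axis is linear below 1 and logarithmic above. SALL4 and DPPA4 lie between 1186 and 4539 counts in every culture, DNMT3B between 6 and 21, and the other 6 genes at 0 to 2.

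SALL4 and DPPA4 were the 2 members with high counts on their only transcript, against the near-0 counts of ZFP42 and PRDM14. SALL4, a zinc-finger factor that partners OCT4 and NANOG in stem cells, is listed with 1 transcript (NM_020436, GRCh37 chr20:50398870-50419060, minus strand) and had 3198 to 4539 counts per sample. DPPA4, a SAP-domain nuclear protein of stem and germ cells, is also listed with 1 transcript (NM_018189, chr3:109044991-109056393, minus strand) and had 1186 to 1984 counts. Per kilobase of transcript, SALL4 was at 85.8 CPM, above 92.8% of the genes with 1 transcript on 1 row, and DPPA4 at 44.9 CPM, above 83.8%. On the same scale SOX2 was at 440.0 CPM and LIN28A at 309 CPM. Annotated pseudogenes number 5 for SALL4 and 2 for DPPA4, and reads that match them could be missing from either count. No other annotated gene overlaps SALL4 or DPPA4.

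DNMT3B, the de novo DNA methyltransferase of early embryonic cells (chr20:31350191-31397165, plus strand), appears to be measured only in part. Of its 6 listed transcripts, NM_175850 had 6 to 21 counts, NM_006892 had 1 to 9, and the other 4 were at 0 in every sample. The GENCODE transcript of the same length as NM_175850, DNMT3B-201, is 4255 bases long, and 294 of these bases lie in no other protein-coding transcript of the gene. DNMT3B-202, of the same length as NM_006892, has 0 such bases, although NM_006892 had 59 counts over the 12 samples, so these models do not account for every count. The value reported for DNMT3B is that of NM_175850 and may stand for part of its transcript only.

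Addition of doxycycline left the 3 tested genes without a change that passed the threshold. With the miR-10a vector, 0 of the 3 genes passed, where 1.21% of all 11451 tested genes did; with the miR-10b vector, 0 of 3 passed, where 15.3% did. Averaged over both vectors, 0 of 3 passed, against 13.9% of all genes, and 0 of 3 differed between the vectors in their response, against 1.96%. With 3 genes, a count of 0 lies near these shares. At an unadjusted p under 0.05, 1 of the 3 was counted, SALL4 in the miR-10b cultures and in the difference between the vectors, where 27.6% and 13.2% of all tested genes were. DESeq2 called neither SALL4 nor DPPA4 and gave DNMT3B no adjusted p for these effects. Treated and control cultures did not overlap for 1 of the 3 genes with miR-10a, where 18.2% of all tested genes did not, and for 0 of 3 with miR-10b, where 28.7% did not.

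In miR-10a cultures, DPPA4 was at 148, 140.1 and 148 CPM without doxycycline and at 142, 143 and 155 CPM with it, so the groups overlapped. The fitted difference was log2 0.01 (SE 0.04, edgeR adjusted p = 0.97), with a 95% interval from -5.26% to 6.92%. In miR-10b cultures, DPPA4 was at 108, 110.4 and 105 CPM without and at 103, 102 and 112 CPM with doxycycline, again with overlap. The difference was log2 -0.03 (SE 0.05, adjusted p = 0.70), with an interval from -8.33% to 4.25%. In this fit, the intervals of DPPA4 stayed under 10% in either direction with either vector, without showing that there was no change. With DESeq2, the miR-10b difference was log2 -0.053 with a larger SE of 0.053, so the bound depends on the fit. The intervals hold only for the spread between these samples.

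SALL4 was at 307, 320.4 and 310 CPM in miR-10a cultures without doxycycline and at 306, 301 and 303 CPM with it. The highest treated culture lay just below the lowest control. The fitted difference was log2 -0.04 (SE 0.03, adjusted p = 0.71), with an interval from -7.59% to 1.95%.

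In miR-10b cultures, SALL4 was at 298, 272 and 275 CPM without and at 297, 296 and 301 CPM with doxycycline. Replicate 1 of the controls was as high as the treated cultures and the other 2 controls were lower. The difference was log2 0.08 (SE 0.04, edgeR adjusted p = 0.11), with an interval from 0.842% to 11.3%. Without replicate 1 of the miR-10b controls, it was log2 0.125 (adjusted p = 0.019), so that 1 control culture decides on which side of the threshold SALL4 falls. The 2 responses of SALL4, of opposite sign, differed by log2 0.13 (SE 0.05, adjusted p = 0.22).

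DNMT3B was at 1.21, 1.06 and 1.44 CPM without and at 1.45, 1.08 and 1.14 CPM with doxycycline in miR-10a cultures. In miR-10b cultures it was at 1.35, 1.26 and 1.58 CPM without and at 1.09, 1.54 and 0.499 CPM with doxycycline, replicate 3 of the treated cultures being the lowest of the 12. The fitted difference was log2 -0.01 (SE 0.31, adjusted p = 0.99) with miR-10a and log2 -0.42 (SE 0.31, adjusted p = 0.41) with miR-10b, with intervals from -35.9% to 53.4% and from -51.6% to 15.3%. The miR-10b value was log2 -0.81 without replicate 2 and log2 -0.083 without replicate 3 of the treated miR-10b cultures, and -0.22 with counts summed over transcripts and -0.15 with counts thinned to equal totals (adjusted p 0.15 to 0.90 over all its alternatives).

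**Figure D2:**
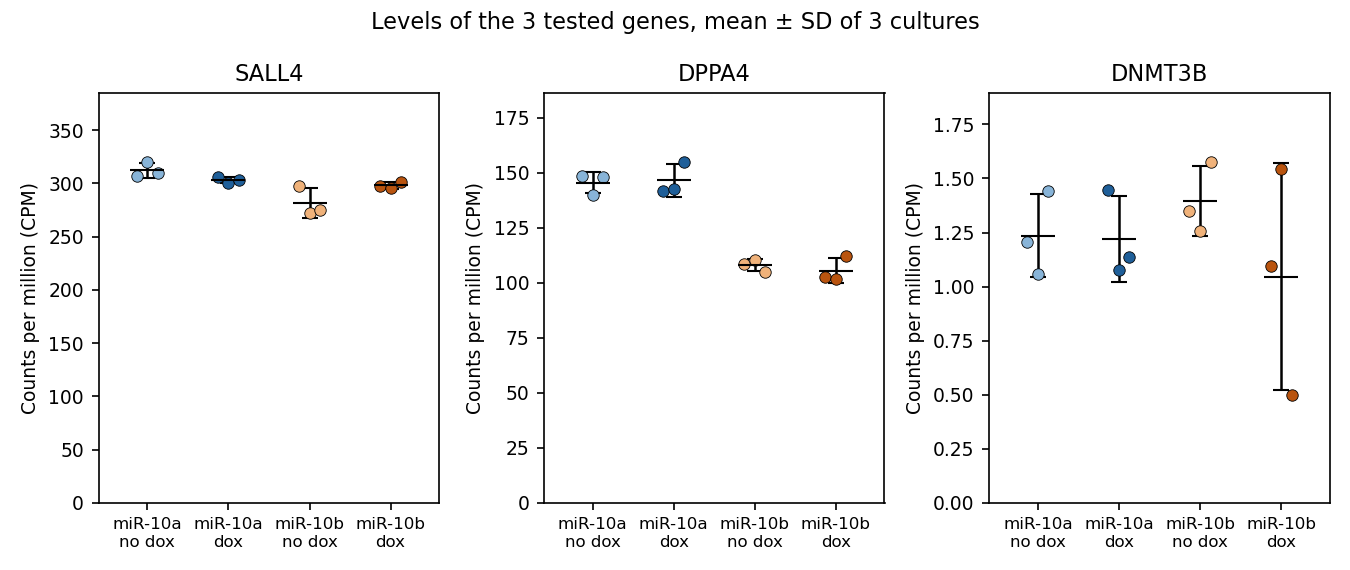
Level in CPM of SALL4, DPPA4 and DNMT3B in each culture (points), with the mean and SD of the 3 cultures of a group (bars); each vertical axis starts at 0. DPPA4 lies between 140.1 and 155 CPM in the 6 miR-10a cultures and between 102 and 112 CPM in the 6 miR-10b cultures, whether or not doxycycline was given.

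DPPA4 and SALL4 differed between the cultures carrying the 2 vectors. Without doxycycline, 2 of the 3 tested genes, DPPA4 and SALL4, were lower with the miR-10b than with the miR-10a vector, where 14.1% of all tested genes passed the threshold in either direction. DPPA4 was at 146 ± 4.78 CPM with the miR-10a and 108 ± 2.73 CPM with the miR-10b vector (mean ± SD, n = 3 each), a difference of log2 -0.43 (SE 0.04, edgeR adjusted p = 1.1e-09) or -25.8% with a 95% interval from -30.2% to -21.1%. SALL4 was at 312 ± 7.06 and 282 ± 14.1 CPM, a difference of log2 -0.15 (SE 0.03, adjusted p = 0.0017) or -9.95% with an interval from -14.2% to -5.44%. Neither gene overlapped between the 2 control groups, as was the case for 30.1% of all tested genes. DNMT3B was at 1.24 ± 0.19 and 1.40 ± 0.16 CPM and did not pass (log2 0.18, SE 0.29, adjusted p = 0.77).

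The same order held for DPPA4 under doxycycline, at 147 ± 7.38 CPM with the miR-10a and 105.5 ± 5.65 CPM with the miR-10b vector, values that did not overlap, as for 31.4% of all tested genes. SALL4 was at 303 ± 2.57 and 298 ± 2.98 CPM under doxycycline, and these overlapped. From high to low, the group means of DPPA4 thus fell into a pair of miR-10a groups and a pair of miR-10b groups, with no difference beyond the spread inside either pair. The order for SALL4 was miR-10a control, miR-10a with doxycycline, miR-10b with doxycycline and miR-10b control, and the neighbours in the middle overlapped. The ratio of SALL4 to DPPA4, both per kilobase, was 1.58 to 1.85 in the 6 miR-10a cultures and 1.99 to 2.35 in the 6 miR-10b cultures.

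Markers of other cell types moved with the vector as well. The 8 fibroblast and mesenchyme genes, led by COL3A1, TWIST1 and COL1A1, summed to 202 to 227 CPM in the 6 miR-10a cultures and 343 to 426 CPM in the 6 miR-10b cultures, and 4 of the 7 tested were higher and 1 lower in the miR-10b controls. Ventral midbrain and floor plate genes summed to 1122 to 1157 CPM and 1415 to 1480.0 CPM, with 6 of 8 tested genes higher and 0 lower. Of the 15 tested neural progenitor markers, 5 were higher and 5 lower in the miR-10b controls. Of all tested genes, 14.1% passed in this comparison in either direction. The part of these markers, or of the precursor levels without doxycycline, in the differences of DPPA4 and SALL4 was not tested.

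**Figure D3:**
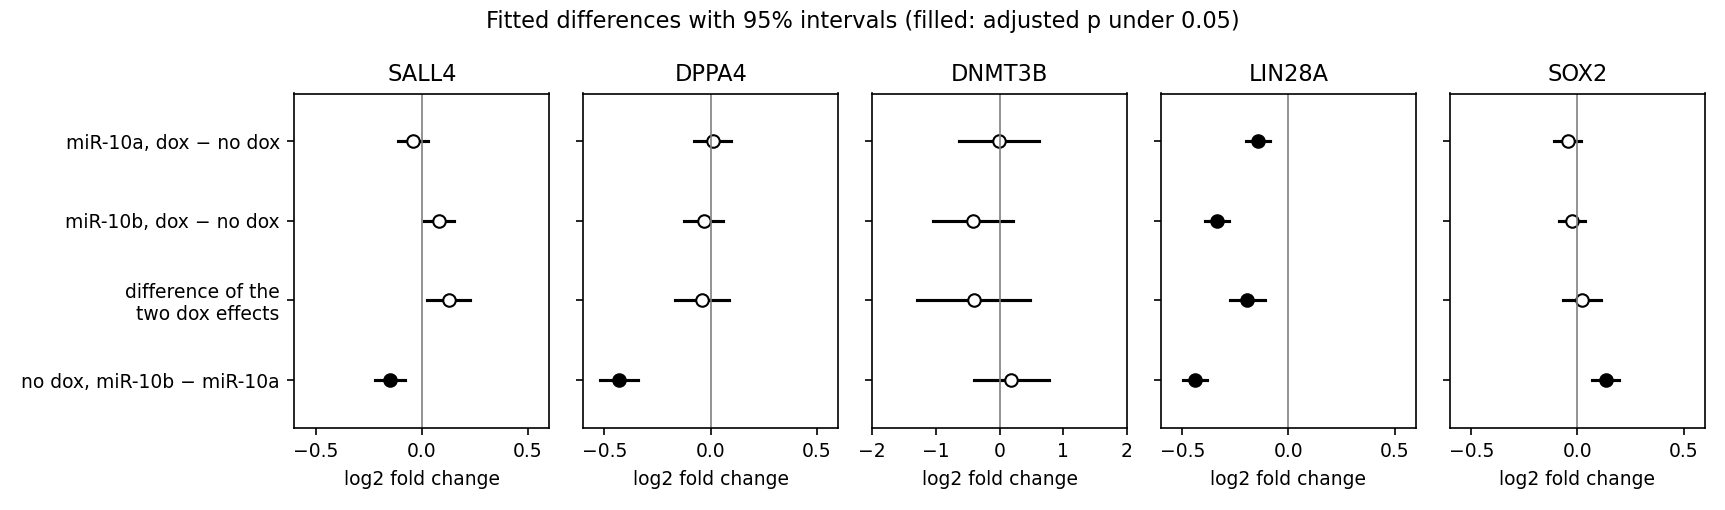
Fitted log2 fold changes with 95% intervals for the 3 tested genes and for LIN28A and SOX2, in 4 comparisons; filled points have an adjusted p under 0.05, and DNMT3B has a wider axis than the other panels. SALL4 and DPPA4 have filled points only in the comparison of the vectors without doxycycline, whereas LIN28A has filled points in all 4.

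A wider list of 39 pluripotency-associated genes was set beside the 9. Of these, 15 were tested, among them LIN28A, SOX2 and LIN28B as the most abundant. Averaged over both vectors, 2 of the 15, LIN28A and TRIM71, were lower with doxycycline, a share near the 13.9% of all tested genes (median log2 0.02 over the list, 0.01 over all tested genes). Of the 15 tested neural progenitor markers, 6 were lower and 0 higher in the same comparison. With the miR-10b vector alone, 3 of the 15 pluripotency genes were lower and 1 higher, where 15.3% of all tested genes passed. With the miR-10a vector alone, 1 was lower and 0 higher, where 1.21% passed. Between the control cultures, 3 genes (LEFTY1, KLF4 and SOX2) were higher and 4 (LIN28A, LIN28B, TRIM71 and ALPL) were lower with the miR-10b vector. Of all tested genes, 14.1% passed in this comparison in either direction. The median was log2 -0.05 over the list against -0.01 over all tested genes. Taken with the 9, 14 of 30 genes with 1 listed transcript were tested, against 4 of 18 with several.

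LIN28A, the RNA-binding inhibitor of let-7 maturation and the gene with a 7mer-m8 printed above, fell with both vectors. It was at 1539 ± 34.8 CPM without and 1395 ± 30.1 CPM with doxycycline in miR-10a cultures (log2 -0.14, SE 0.03, adjusted p = 0.0032), a call lost without replicate 3 of the miR-10a controls (log2 -0.13, adjusted p = 0.052). In miR-10b cultures it was at 1135 ± 12.9 and 899 ± 12.9 CPM (log2 -0.34, SE 0.03, adjusted p = 4.8e-11). Between the control cultures LIN28A was lower with the miR-10b vector by a margin close to that of DPPA4 (log2 -0.44, SE 0.03, adjusted p = 8.1e-15).

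TRIM71, the ubiquitin ligase and RNA-binding protein LIN-41 of early progenitors, was at 277 ± 7.61 CPM without and 256 ± 7.86 CPM with doxycycline in miR-10a cultures, and at 221 ± 2.59 and 194 ± 8.10 CPM in miR-10b cultures. Its average response was log2 -0.15 (SE 0.03, adjusted p = 6.5e-05) and its difference between the controls log2 -0.33 (SE 0.04, adjusted p = 7.7e-09). By vector, the response passed with miR-10b (log2 -0.19, adjusted p = 0.00035) and not with miR-10a (log2 -0.11, adjusted p = 0.155). SOX2, shared by stem cells and neural progenitors, was at 1067 ± 21.1 and 1170 ± 13.6 CPM in the miR-10a and miR-10b controls, and so was higher where DPPA4 and SALL4 were lower (log2 0.13, SE 0.03, adjusted p = 0.0017). LEFTY1, a NODAL antagonist, was at 0.784 ± 0.267 and 2.91 ± 0.523 CPM in these controls (log2 1.87, SE 0.28, adjusted p = 3.3e-06).

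The calls of KLF4 and ALPL between the controls were lost in some alternatives. KLF4 had 66 to 127 counts per sample and ALPL 5 to 27, against 6 to 43 for LEFTY1. KLF4, a reprogramming factor, was higher in miR-10b controls (log2 0.40, SE 0.13, adjusted p = 0.035; lost in 4 of 12 fits without 1 library, up to 0.19, with DESeq2, 0.11, and with thinned counts, 0.11). ALPL, the alkaline phosphatase used to stain stem cell colonies, was lower there (log2 -0.82, SE 0.28, adjusted p = 0.046; lost in 6 of 12, up to 0.19, and without a count minimum, 0.061) and was measured on 1 of 3 transcripts. With thinned counts ALPL was at log2 -0.46 (adjusted p = 0.40).

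**Figure D4:**
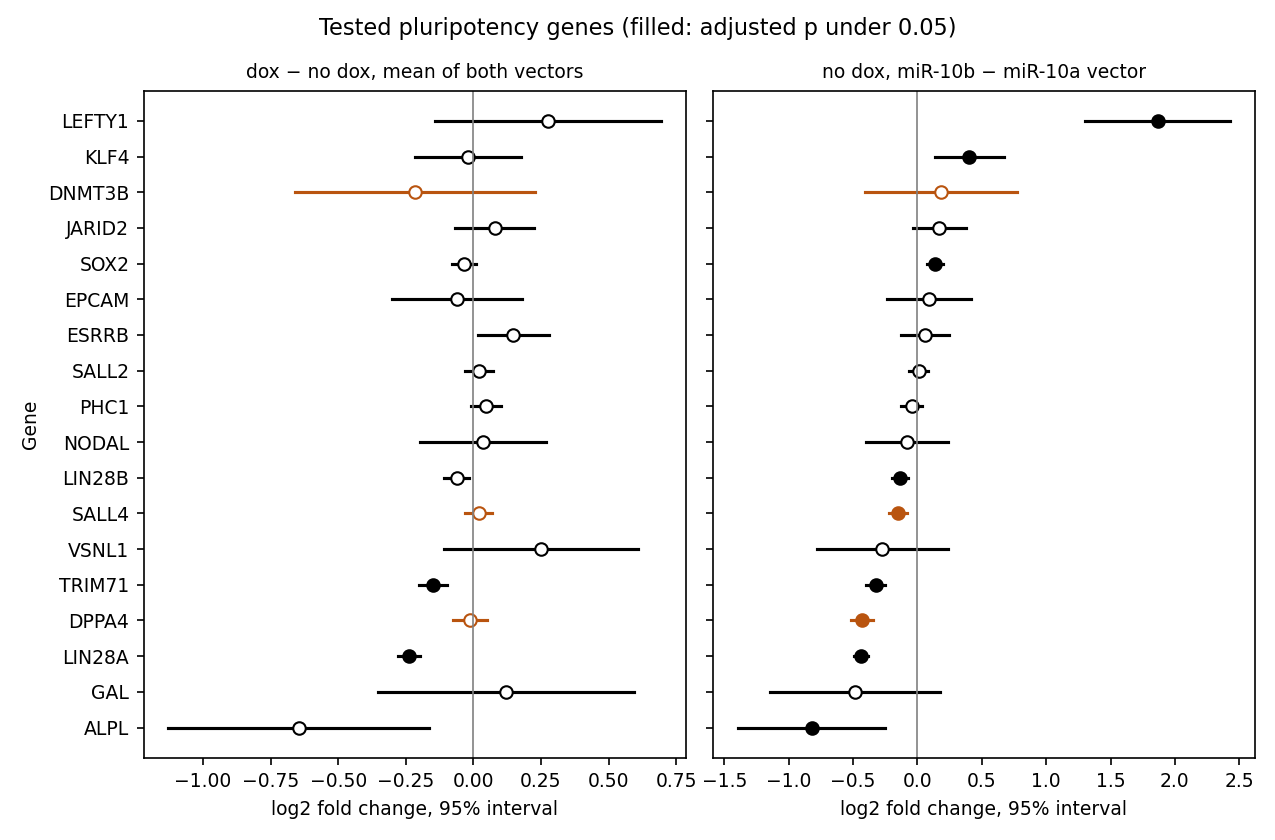
Fitted log2 fold changes with 95% intervals for the 18 tested pluripotency genes, on the left for doxycycline averaged over both vectors and on the right for miR-10b against miR-10a controls; the 3 members SALL4, DPPA4 and DNMT3B are in orange, the other 15 in black, and filled points have an adjusted p under 0.05. In the left panel 2 genes are filled and none is a member, and in the right panel 9 are filled, including DPPA4 and SALL4.

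Families of the members were also counted. Of all tested genes, 14.1% passed between the controls and 13.9% on average with doxycycline, in either direction. All 4 SALL genes were tested, and beside SALL4 only SALL3 passed a threshold, at log2 -0.17 between the controls (adjusted p = 0.015) and log2 0.10 on average with doxycycline (adjusted p = 0.048). The first was lost without replicate 1 or 2 of the miR-10a controls or replicate 3 of the miR-10b controls (adjusted p up to 0.20), and the second in 9 of 12 fits without 1 library (up to 0.20) and with DESeq2 (0.15). Of 8 genes that write or remove DNA methylation, 6 were tested and DNMT1 and DNMT3L were not. TET3 was higher with doxycycline on average (log2 0.14, adjusted p = 0.00055). By vector, TET3 passed with miR-10b (log2 0.20, adjusted p = 0.00038) and not with miR-10a (log2 0.08, adjusted p = 0.49). TET2 was higher and TET1 lower in the miR-10b controls (log2 0.14 and -0.24, adjusted p = 0.015 and 1.0e-05). The TET2 call was lost without replicate 2 or 3 of the miR-10a controls or replicate 3 of the miR-10b controls (adjusted p up to 0.13). Of 15 genes of the NODAL pathway, in which TDGF1 acts, 8 were tested. On average 1, SMAD3, was higher with doxycycline (log2 0.19, adjusted p = 0.015) and 1, ACVR2B, was lower (log2 -0.11, adjusted p = 0.00067), where 13.9% of all tested genes passed. By vector, ACVR2B passed with miR-10b (log2 -0.19, adjusted p = 8.6e-05) and not with miR-10a (log2 -0.04, adjusted p = 0.72). The average call of SMAD3 was lost without replicate 1 or 3 of the miR-10a controls (adjusted p up to 0.067) and with DESeq2 (0.052). SMAD3 was also higher in the miR-10b than in the miR-10a controls (log2 0.29, adjusted p = 0.0073). The genes named here for their family were picked after their values were seen.

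The genes whose levels followed SALL4 most closely over the 12 samples were FAM167B, CROT, FAXDC2, NKAIN1 and ZBTB9, with Pearson's r of 0.94, 0.92, 0.90, 0.90 and 0.90 on log2 CPM. SALL4 and DPPA4 correlated at r = 0.64, which put DPPA4 at place 542 in this order. The 12 points share the 4 groups and the library totals, so these values describe the samples only.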

How the data were processed

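RNA of the 12 cultures was sequenced as single-end reads of 50 bases. The authors aligned these to hg19 and deposited, for each sample, raw counts on RefSeq transcripts, without normalization; the submitters' processing notes name STAR, Subread and featureCounts. The methods and the labels name different RNA and library kits. The deposited length column was used only to scale levels per kilobase.

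Each table held 51799 rows for 48101 transcripts; 3698 repeated rows were dropped. Genes with 1 transcript held 92.8% of the counts, and reads shared by transcripts appear to be left out. A low count of a gene with several transcripts therefore does not by itself show low expression. The quasi-likelihood test of edgeR 4.0.16 (glmQLFit, glmQLFTest, R 4.3.3) was run on genes with a mean above 10 counts, with 4 group means, total count as library size and Benjamini-Hochberg adjustment over all tested genes at 0.05, for each doxycycline effect, their average, their difference and the controls. SE and 95% intervals come from the quasi-likelihood fit. Members below the minimum were compared by exact permutation, and other genes below it only by the edgeR fit without a count minimum. The exact Poisson intervals of ZFP42 and PRDM14 and the floor of 3 counts (0.212 to 0.284 CPM per sample) cover counting error only. Groups were taken from the labels, and the code was tested on simulated counts. Alternatives were TMM factors, DESeq2 1.42.0, other count minimums, summed transcripts, a replicate block, fits of the compared groups only, each library left out and, added after the data were seen, thinning to equal totals. 3′UTRs and seed matches were read with Python 3.11.15.

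The members and gene lists were chosen with earlier results of these data known. The text names the members, genes of the related lists with an adjusted p under 0.05 and a log2 difference of at least 0.3 over both vectors or between controls, the 3 most abundant genes of each marker list, LIN28A, SOX2, the precursors, and the 5 genes most correlated with SALL4 (log2 of CPM plus 0.5). Other genes, among them POU5F1B, DNMT1, DNMT3L, LIN28B, SALL3, the TET genes, SMAD3, ACVR2B, ACVR1B, KLF17, FOXH1 and GDF3, were named after their values were seen. Some listed genes and 1 sequence are not reported here, and the counts and sums of lists leave these genes out.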

Additional observations from a re-analysis of the deposited data

Results flagged for a closer look

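LIN28A responded more to doxycycline with the miR-10b than with the miR-10a vector: the 2 effects differed by log2 -0.195 (SE 0.04, edgeR adjusted p = 0.0041), and the call held in all 19 alternatives run (adjusted p up to 0.029). TET1, which oxidises methylated cytosine, moved in opposite directions, log2 -0.08 with miR-10a (adjusted p = 0.39) and log2 0.13 with miR-10b (adjusted p = 0.019), a difference of log2 0.213 (SE 0.05, adjusted p = 0.029); it was lost in 6 of the 12 fits that left out 1 library (adjusted p up to 0.12). Neither gene is among the 9 members, and of the 3 members tested none differed between the vectors by this test, SALL4 coming closest (adjusted p = 0.22). Outliers were not tested in groups of 3.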

How the results depend on the processing

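The lower DPPA4 and SALL4 of the miR-10b controls passed the threshold in all 20 alternatives, at log2 -0.46 to -0.41 for DPPA4 and -0.193 to -0.127 for SALL4. No doxycycline effect on a member passed in any alternative that gave an adjusted p, except SALL4 with miR-10b without replicate 1 of the miR-10b controls. Values near 0 changed sign: DPPA4 with miR-10a was log2 -0.0013 with DESeq2 and -0.032 to 0.031 without 1 library, its average effect -0.034 to 0.00091 without 1 library, and DNMT3B with miR-10a was 0.145 with summed transcripts and -0.151 to 0.110 without 1 library. Of the counts of genes, those for miR-10a and for the difference of effects moved by over 1.5 times. For miR-10a, 139 genes passed, 275 when only the compared groups were fitted, and 75 to 268 without 1 library: 75 without replicate 1 of the miR-10a doxycycline cultures, 84 and 81 without replicates 1 and 3 of the miR-10a controls, and 268 without replicate 2 of the miR-10b doxycycline cultures. For the difference, 224 passed, 343 without a count minimum, and 140 to 339 without 1 library: 140 without replicate 2 of the miR-10a controls and 339 without replicate 3 of the miR-10b doxycycline cultures. Equal replicate numbers did not deviate together (mean r -0.0093), and with the replicate block 116 genes passed for miR-10a and 1638 for miR-10b, with no call of a member changed. Low counts limit DNMT3B, ZFP42 and PRDM14, and POU5F1, NANOG, TDGF1, L1TD1 and DNMT3B have several listed transcripts, whose shared reads appear to be left out.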

Other observations

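Genes under the minimum of 10 mean counts enter only the fit without that minimum. Among them, 3 genes related to the members and with 1 listed transcript rose with doxycycline, each called with 1 vector only. They were picked after their values were seen. KLF17, a KLF factor of the early human embryo, had 5, 7 and 4 counts in miR-10a cultures with doxycycline and 0 in all 3 controls. With the control group set to a floor of 3 counts, its fold was 6.19 (edgeR adjusted p = 0.0029). With miR-10b, KLF17 had 1, 2 and 2 counts against 0, 0 and 1. FOXH1, the DNA-binding partner of SMAD2 and SMAD3 in NODAL signalling, had 8, 14 and 18 counts in miR-10b cultures with doxycycline and 2, 4 and 3 in their controls (4.92-fold by pooled counts, adjusted p = 0.00012), against 0 to 2 counts in the 6 miR-10a cultures. GDF3, a NODAL-related ligand, had 2, 2 and 4 counts in miR-10b cultures with doxycycline and 0 in all 3 controls. With the same floor for its controls, the fold of GDF3 was 2.95 (edgeR adjusted p = 0.047). The folds of KLF17 and GDF3 against the floor are not lower bounds, as the error of the treated counts is left out. With miR-10a, GDF3 had 0, 0 and 1 counts against 0 in all 3 controls. Averaged over both vectors, KLF17 passed (edgeR adjusted p = 0.0021), and FOXH1 (0.56) and GDF3 (0.21) did not. The difference between the vectors passed for none of the 3. Of the 29 genes of these lists that were tested in this fit only, 3 passed with miR-10b and 1 with miR-10a, against 8.65% and 0.906% of all 20966 genes in that fit; the third with miR-10b, ACVR1B, has 3 listed transcripts.

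POU5F1 had 1 count in each of the 3 miR-10b cultures with doxycycline and 0 in their controls (exact permutation p = 0.1, the smallest possible), both at or under the floor of 3 counts per group. Of all tested genes, 28.7% did not overlap between these groups. In the fit without a count minimum it did not pass (edgeR adjusted p = 0.36). On the same transcript, miR-10a cultures had 1, 0 and 1 counts with and 0, 0 and 2 without doxycycline. As stated above, these counts do not show the level of the gene.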
